A study of Mus musculus with 38 samples.

Results

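The NMDA receptor subunits are encoded in the mouse by a family of 7 genes, *Grin1*, *Grin2a*, *Grin2b*, *Grin2c*, *Grin2d*, *Grin3a* and *Grin3b*. They were picked by gene symbol, with earlier results of these data known, and all 7 were present among the 54165 genes of the count table. Their mRNA levels come from bulk RNA-seq of 38 libraries, prepared from prefrontal cortex (PFC) or hypothalamus (Hypo) of 25 adult FVB/NJ mice. Ube3a2x mice were homozygous for a transgene of *Ube3a*, a ubiquitin ligase, irrespective of the parent that transmitted it, and WT littermates were the controls. In the PFC there were 5 libraries each of WT females (F), Ube3a2x females, WT males (M) and Ube3a2x males. In the Hypo there were 4 WT F, 5 Ube3a2x F, 4 WT M and 5 Ube3a2x M libraries, and 13 of the mice gave both tissues. PFC was collected as micropunches and the Hypo was excised, so every library is a mixture of neurons and glia. The design asked how the make-up of the receptor mRNA differs between the tissues, and whether it changes with genotype, in either sex.

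NMDA receptors are glutamate-gated cation channels that let in calcium when glutamate binds while the membrane is depolarised, and they are needed for many forms of synaptic plasticity. Each channel contains GluN1, the product of *Grin1*, which binds the co-agonist glycine or D-serine, together with GluN2 subunits that bind glutamate and set the time course of the current. GluN2B is prominent early in life, GluN2A increases in the forebrain after birth, GluN2C is best known from the cerebellum, GluN2D from the diencephalon and from interneurons, and the GluN3 subunits bind glycine and lower calcium entry.

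The libraries held 36.9 to 69.1 M counted reads in the PFC and 39.0 to 380.8 M in the Hypo. The RNA integrity number (RIN) ranged from 6.7 to 8.9 in the PFC and from 6.8 to 9.3 in the Hypo. *Ube3a* was higher in Ube3a2x than in WT mice in the PFC, with a log2 fold change of 2.32 (SE 0.15, adjusted p = 5.11e-07), and in the Hypo, with 1.97 (SE 0.18, adjusted p = 6.99e-04, edgeR). The dissected tissues carried their markers. The summed level of 8 markers of cortical excitatory neurons was 2099 to 2548 CPM (counts scaled to library size) in the PFC and 95.2 to 117 CPM in the Hypo. That of 10 markers of hypothalamic neurons was 7.66 to 15.2 CPM in the PFC and 986 to 2617 CPM in the Hypo. Among the latter, *Oxt* was at 0 in 15 of the 20 PFC libraries and *Sim1* in 13.

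Hypo WT F 471 stood apart from the other Hypo libraries. The summed level of 5 pituitary markers was 5103 CPM in this library and at most 1013 CPM in any other, 53.7% of its aligned bases lay in untranslated regions, and its *Ube3a* level was 9.95 TPM (transcript abundance, as reads per kb of exon scaled to the same sum in each library). The summed level of the 7 *Grin* genes was 82.7 TPM in Hypo WT F 471 and 206 to 264 TPM in the other 17 Hypo libraries. The results that this library moved most are therefore given with and without it, and the part of pituitary RNA in them was not tested.

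All positions are those of GRCm38. *Grin1* (ENSMUSG00000026959) lies on chromosome 2 from 25291181 to 25319187, with 9.7 kb of merged exon. *Grin2a* (ENSMUSG00000059003) lies on chromosome 16 from 9567898 to 9995560 with 17.9 kb of exon, and *Grin2b* (ENSMUSG00000030209) on chromosome 6 from 135713233 to 136173511 with 24.8 kb. *Grin2c* (ENSMUSG00000020734) on chromosome 11 from 115249169 to 115267243 and *Grin2d* (ENSMUSG00000002771) on chromosome 7 from 45831883 to 45878378 are shorter, with 5.04 kb and 6.66 kb of exon. *Grin3a* (ENSMUSG00000039579) lies on chromosome 4 from 49661611 to 49845744, and *Grin3b* (ENSMUSG00000035745) on chromosome 10 from 79970715 to 79977190 with 3.3 kb of exon. The family is uneven in base composition, since the exons of *Grin2d* (65.6% GC), *Grin3b* (62.3%), *Grin2c* (61.6%) and *Grin1* (58.4%) are richer in G and C than those of at least 94.9% of annotated genes, whereas *Grin2a* (49.6%), *Grin2b* (47.3%) and *Grin3a* (47.0%) are near the middle. All except *Grin3b* are read from the minus strand.

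Genes on the opposite strand share exonic bases with 5 members, and the sources used here do not say whether strand was used in counting. *Grin2d* shares 643 bases with the antisense gene *Gm45441*, whose reads were 45.1% of the *Grin2d* reads in the PFC and 2.97% in the Hypo. *Grin3b* shares 1059 bases with *Tmem259*, which had 1139 to 4496 reads per PFC library where *Grin3b* had 0 to 9. *Grin1* shares 1307 bases with *Grin1os*, whose reads came to 3.95% of those of *Grin1* in the PFC (0.81% in the Hypo). The low counts of *Grin3b* in both tissues and those of *Grin2d* in the PFC are therefore uncertain in this respect.

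Start regions of 4 of the 7 members were found among the RefSeq promoter windows (GRCm38.p6, 250 bases before to 50 after the start). That of *Grin2d* belongs to a RefSeq start inside the gene span given above, not to its 5′ end. The windows are shown because the family spans a large range of mRNA level and of GC content. Capitals mark the letters GGGCGG or their complement on the other strand, the core of the GC box, which was found in 35.7% of 32851 windows of this length. The windows are Grin1 at chr2:25319138-25319437, Grin2c at chr11:115267194-115267493 and Grin2d at chr7:45866632-45866931, all on the minus strand, and Grin3b at chr10:79970474-79970773 on the plus strand, each printed 5′ to 3′.
Grin1: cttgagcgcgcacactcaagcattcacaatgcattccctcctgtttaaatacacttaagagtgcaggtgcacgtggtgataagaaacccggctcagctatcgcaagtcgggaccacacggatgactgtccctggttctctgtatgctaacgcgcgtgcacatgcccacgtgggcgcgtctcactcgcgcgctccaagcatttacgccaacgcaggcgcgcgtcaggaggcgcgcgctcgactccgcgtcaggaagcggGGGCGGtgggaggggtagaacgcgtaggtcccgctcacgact
Grin2c: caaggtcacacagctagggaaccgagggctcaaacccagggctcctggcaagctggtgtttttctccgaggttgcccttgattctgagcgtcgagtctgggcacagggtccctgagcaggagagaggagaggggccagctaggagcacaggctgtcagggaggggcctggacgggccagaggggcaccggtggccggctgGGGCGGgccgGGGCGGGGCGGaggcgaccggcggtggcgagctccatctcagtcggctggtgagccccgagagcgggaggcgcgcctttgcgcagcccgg
Grin2d: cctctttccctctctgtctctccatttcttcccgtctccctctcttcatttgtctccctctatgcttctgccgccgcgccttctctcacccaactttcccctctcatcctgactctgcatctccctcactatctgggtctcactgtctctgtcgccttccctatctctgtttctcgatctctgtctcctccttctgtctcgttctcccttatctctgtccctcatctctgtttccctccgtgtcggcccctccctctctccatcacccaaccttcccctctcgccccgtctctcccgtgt
Grin3b: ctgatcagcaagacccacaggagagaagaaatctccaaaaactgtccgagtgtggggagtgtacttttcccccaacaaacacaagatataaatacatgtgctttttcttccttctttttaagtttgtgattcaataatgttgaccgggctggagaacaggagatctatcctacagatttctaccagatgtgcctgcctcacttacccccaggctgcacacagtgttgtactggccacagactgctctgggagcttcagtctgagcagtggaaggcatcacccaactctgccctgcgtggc

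The *Grin2c* window held 3 GC boxes, a pair of which overlap, as at least 3 did in 10.7% of all windows, and its GC content of 70.0% exceeded that of 90.4% of them. In the *Grin1* window there was 1 GC box beside 33 CpG dinucleotides, more than in 91.4% of windows, and 2 matches to CACGTG, the E box, a motif present in 7.15% of windows. No GC box was found in these windows of *Grin2d* and *Grin3b*, and TATAAA was found once in that of *Grin3b* (13.6% of windows). TGACGTCA, the cAMP response element, was in none of the 4 windows and in 1.79% of all. The letters describe the windows and do not show that a factor binds there.

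*Grin1* was the most abundant subunit mRNA in both tissues, with a mean of 164 ± 28.0 TPM in the PFC (SD, n = 20) and 112 ± 20.4 TPM in the Hypo (SD, n = 18). In the PFC the order of the mean levels was then *Grin2b* (108 ± 15.4 TPM), *Grin2a* (59.7 ± 7.23 TPM), *Grin2c* (23.6 ± 5.33 TPM), *Grin3a* (22.0 ± 3.14 TPM), *Grin2d* (6.42 ± 1.10 TPM) and *Grin3b* (0.061 TPM). Neighbours in this order were separated in all 20 PFC libraries except for *Grin1* over *Grin2b* (19 of 20) and *Grin2c* over *Grin3a* (13 of 20), whose ranges overlapped. In the Hypo the order was different. *Grin3a* came second with 42.2 ± 8.48 TPM, followed by *Grin2b* (35.4 ± 7.95 TPM), *Grin2d* (18.2 ± 3.74 TPM), *Grin2c* (15.9 ± 2.58 TPM), *Grin2a* (8.12 ± 1.62 TPM) and *Grin3b* (0.27 TPM). *Grin3a* exceeded *Grin2b* in 16 of 18 Hypo libraries and *Grin2d* exceeded *Grin2c* in 15, and their ranges overlapped with or without Hypo WT F 471. Without Hypo WT F 471 the order was kept and the means became 44.1 TPM for *Grin3a*, 37.0 TPM for *Grin2b*, 18.7 TPM for *Grin2d*, 16.4 TPM for *Grin2c* and 8.44 TPM for *Grin2a*. *Grin3b* had 0 to 9 reads per PFC library, with no read in 2 of the 20, and 5 to 123 per Hypo library.

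**Figure D1:**
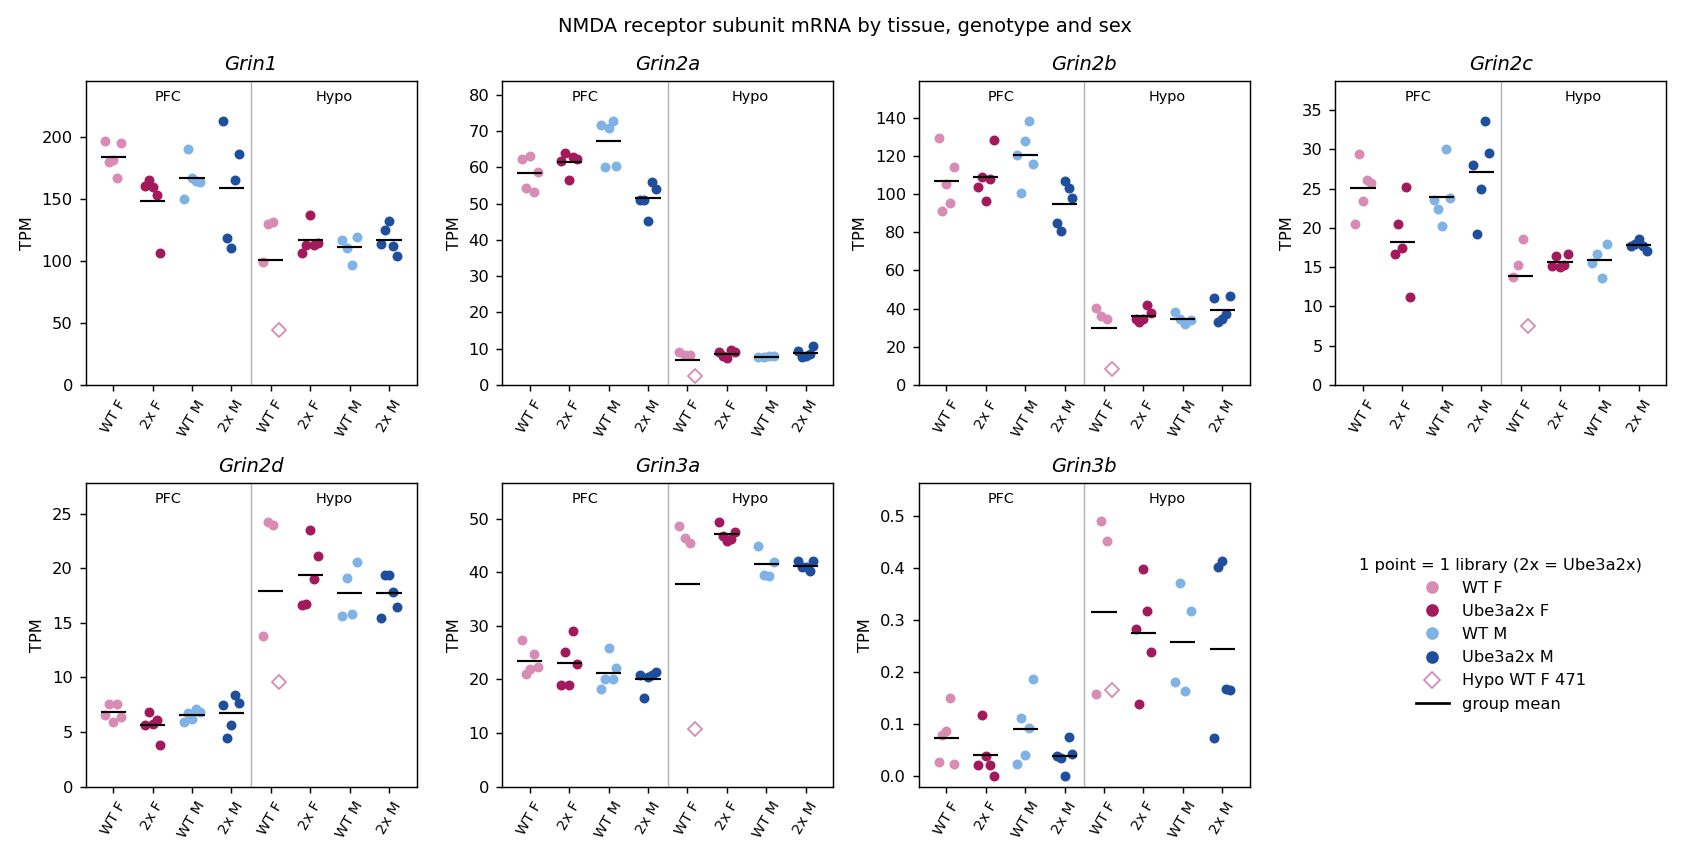
Level of each of the 7 NMDA receptor subunit mRNAs in TPM (vertical axis, linear) in every library, by tissue, genotype and sex (horizontal axis); points are libraries, lines are group means and the open diamond is Hypo WT F 471. Grin2a and Grin2b are higher in every PFC library than in any Hypo library, and Grin2d is lower.

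As a share of the summed TPM of the 7 genes, *Grin1* made up 42.6% ± 4.74 in the PFC and 48.3% ± 2.66 in the Hypo (SD). *Grin2a* and *Grin2b* together with *Grin1* dominated the PFC, where *Grin2b* held 28.2% ± 3.83 and *Grin2a* 15.6% ± 1.66, against 15.1% ± 2.30 and 3.5% ± 0.44 in the Hypo. The reverse was seen for *Grin3a*, with 5.74% ± 0.77 in the PFC and 18.04% ± 1.98 in the Hypo, and for *Grin2d*, with 1.67% ± 0.24 and 7.96% ± 1.29. *Grin2c* took similar shares, 6.15% ± 1.33 and 6.95% ± 0.78. Among the glutamate-binding subunits alone, *Grin2d* was 3.28% of the *Grin2* TPM in the PFC (23.9% in the Hypo). The *Grin2* genes summed to 1.24 ± 0.26 times the level of *Grin1* in the PFC and to 0.70 ± 0.07 times in the Hypo. Shares and ratios are of mRNA and say nothing of the assembled channels.

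**Figure D2:**
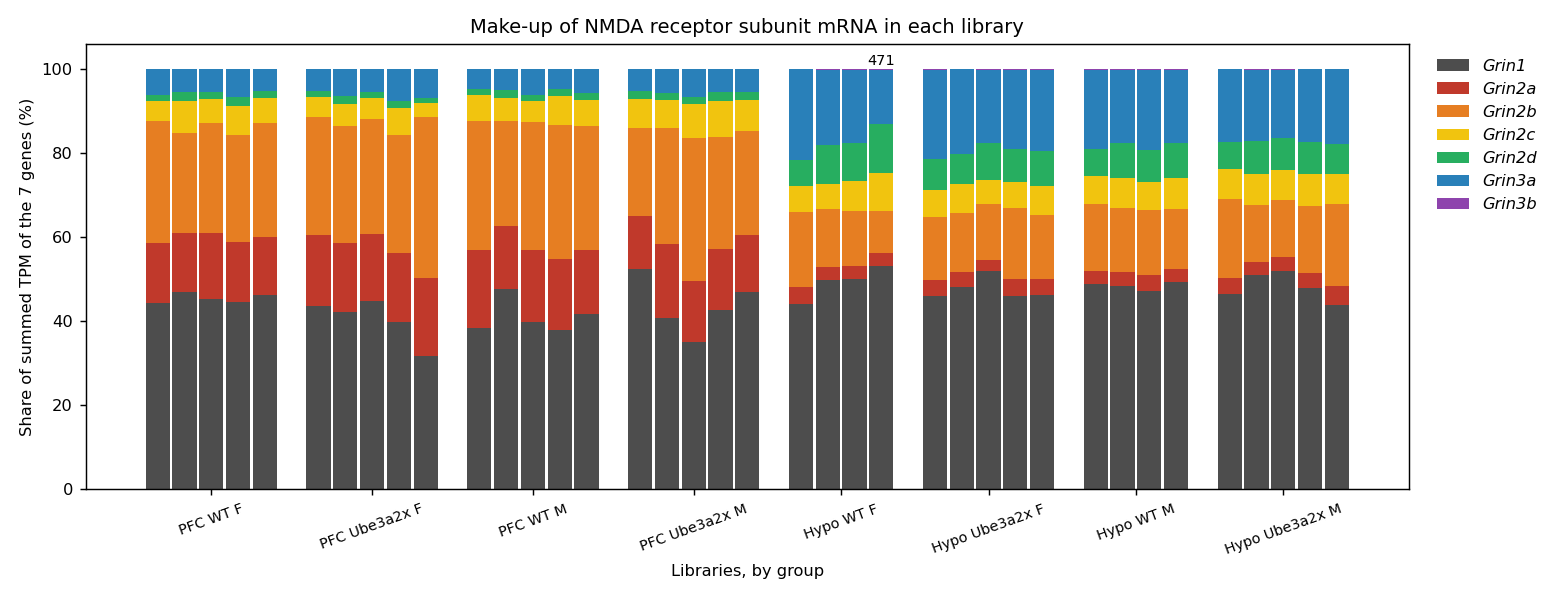
Share of each gene in the summed TPM of the 7 NMDA receptor subunit genes (vertical axis, percent), 1 bar per library, grouped by tissue, genotype and sex. The Grin2a and Grin2b segments are wider in the PFC and the Grin2d and Grin3a segments wider in the Hypo in every group; 471 marks the library that stood apart.

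*Grin2a*, *Grin2b*, *Grin1* and *Grin2c* were higher in the PFC of WT mice, and *Grin2d* and *Grin3a* were higher in the Hypo. These 6 members were well covered in both tissues, and 6 of 6 passed the test (edgeR, adjusted p under 0.05). *Grin3b* passed the filter on low counts only through its Hypo libraries, so its difference is given as a description, with no test. Of all 22282 genes tested, 60.7% were called (29% higher in the PFC and 31.6% lower), so that passing the test is common in this comparison, and the sizes tell more. In bulk tissue, fewer cells of a type and less RNA per cell cannot be told apart.

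The obligatory subunit gene *Grin1* ranged from 105.9 to 213 TPM in the PFC, with a median of 165, and from 43.9 to 137 TPM in the Hypo, with overlapping ranges. Its difference in WT mice was 0.81 on the log2 scale (SE 0.096, 1.75-fold, adjusted p = 4.55e-09). Of the mice with both tissues, 10 of 13 had a higher *Grin1* TPM in the PFC, and 13 of 13 had a higher *Grin1* CPM there.

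*Grin2a* showed the largest difference among the members. Its level was 45.2 to 72.9 TPM in the PFC, with a median of 60.2, and 2.58 to 10.6 TPM in the Hypo, with a median of 8.05, and the tissues did not overlap. The log2 difference of 3.22 (SE 0.11, 95% interval 2.998 to 3.435) is a 9.29-fold higher level in the PFC (adjusted p = 4.49e-24), and *Grin2a* stood at rank 100 of the 22282 genes by p. *Grin2b* also separated the tissues, with 80.5 to 138 TPM against 8.24 to 46.5 TPM and a log2 difference of 2.001 (SE 0.15, 4.003-fold, adjusted p = 4.72e-14). Both were higher in the PFC in 13 of 13 mice. The WT means were 278 CPM in the PFC and 35.0 CPM in the Hypo for *Grin2a*, and 696 and 209 CPM for *Grin2b*. These gaps are narrower than the fitted ones, as were those of *Grin1* and *Grin2c*, whereas that of *Grin2d* was wider.

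*Grin2c* was 1.65-fold higher in the PFC of WT mice (log2 0.73, SE 0.097, adjusted p = 5.46e-08), with ranges of 11.1 to 33.7 TPM and 7.56 to 18.6 TPM that overlapped, and higher in 12 of 13 mice. *Grin2d* was 2.61-fold higher in the Hypo (log2 -1.38, SE 0.11, adjusted p = 2.50e-13). Its level was 3.81 to 8.42 TPM in the PFC and 9.57 to 24.2 TPM in the Hypo, without overlap, and 0 of 13 mice had more in the PFC.

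Of the glycine-binding GluN3 subunits, *Grin3a* was 1.54-fold higher in the Hypo of WT mice (log2 -0.62, SE 0.11, adjusted p = 1.24e-05), with 16.6 to 29.1 TPM in the PFC and, apart from the 10.7 TPM of Hypo WT F 471, 39.4 to 49.4 TPM in the Hypo. Its mean was 67.6 CPM in the PFC and 127 CPM in the Hypo of WT mice, a wider gap than the fitted one, which is on TMM-scaled counts and adjusted for RIN. Without RIN in the model the log2 difference of *Grin3a* was -0.68 in WT and -0.62 in Ube3a2x mice. Without Hypo WT F 471 it was -0.74, and those of *Grin2a* and *Grin2b* were 3.13 and 1.89. *Grin3b* had a log2 difference of -1.57 on very few reads, and of -1.05 without Hypo WT M 423.

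In Ube3a2x mice the 6 well-covered members were again called, where 55.5% of all genes were, with log2 differences of 0.72 for *Grin1*, 3.11 for *Grin2a*, 1.91 for *Grin2b*, 0.64 for *Grin2c*, -1.30 for *Grin2d* and -0.52 for *Grin3a*. *Grin3b*, with the same limit as in WT mice, was at -2.06. When the fit was made within the 13 mice with both tissues, with the mouse as a replicate block, 4 of these 6 were called in Ube3a2x mice (24.7% of all genes) and 6 in WT mice (26.2%). The calls lost in Ube3a2x mice were those of *Grin2c* (0.43, adjusted p = 0.14) and *Grin3a* (-0.37, adjusted p = 0.18). *Grin3a* was nevertheless lower in the PFC in every mouse with both tissues, with 0 of 13 higher in TPM or in CPM. WT and Ube3a2x tissue differences were compared directly as the difference of the genotype effect between PFC and Hypo. No member and no gene was called by edgeR (0 of 22282), 11.1% of genes and 0 members had an unadjusted p under 0.05 (DESeq2 called 34 genes, and edgeR 45 once the dependence on GC content and length was removed, with 0 members in either), and the estimates for the 6 well-covered members lay between -0.10 and 0.10. The 95% interval for *Grin2a* was -0.34 to 0.14.

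**Figure D3:**
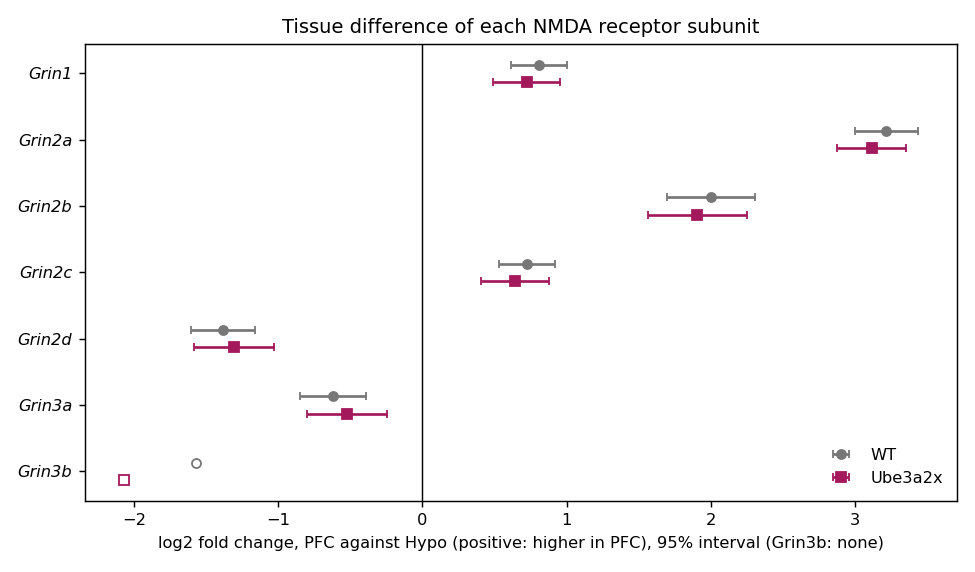
Log2 fold change of each NMDA receptor subunit gene, PFC against Hypo (horizontal axis), with its 95% interval, in WT (circles) and Ube3a2x mice (squares). Grin2a lies above 3 and Grin2b near 2 in both genotypes, Grin2d and Grin3a lie below 0, and Grin3b (open symbols), on few reads, is drawn without an interval.

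The ratio of *Grin2a* to *Grin2b* is free of library size, since both are counted in the same library. Per kb of exon, *Grin2a* was 0.56 ± 0.052 times *Grin2b* in the PFC, from 0.42 to 0.63, and 0.23 ± 0.024 times in the Hypo, from 0.20 to 0.31 (SD). No library of one tissue reached the range of the other, and the highest Hypo ratio was that of Hypo WT F 471; the other 17 Hypo libraries reached 0.26. Within mice the ratio was higher in the PFC in 13 of 13, by a mean of 1.301 on the log2 scale (SD 0.21). The exact permutation test over the 8192 sign changes gave p = 0.000244 (two-sided), the smallest it can give, and 0.0012 after adjustment over 5 tests of this ratio. No difference by genotype was detected in the ratio, with p-values of 0.92 to 0.93 in the exact permutation tests after adjustment over the same 5. Averaged over sex, the log2 difference between Ube3a2x and WT was 0.005 in the PFC (exact permutation p = 0.93) and -0.029 in the Hypo (exact permutation p = 0.69). The difference between the male and the female genotype effect was -0.079 in the PFC (exact permutation p = 0.57) and 0.050 in the Hypo (exact permutation p = 0.74).

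**Figure D4:**
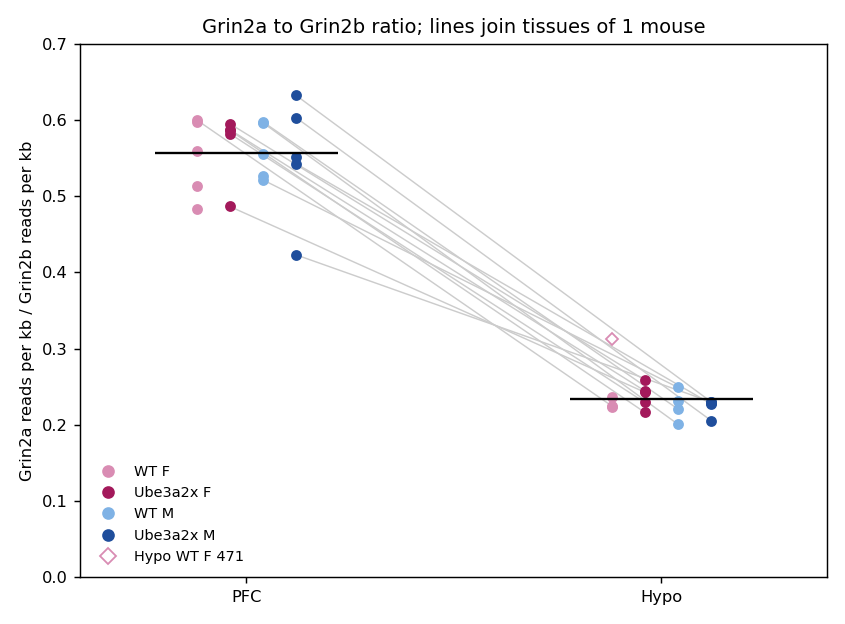
Ratio of Grin2a to Grin2b reads per kb of exon (vertical axis, linear) in each PFC and Hypo library; gray lines join the tissues of 1 mouse, black lines are tissue means and the open diamond is Hypo WT F 471. The lowest PFC point is at 0.423 and the highest Hypo point at 0.313.

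A list of 76 other genes of the receptor pathway, chosen with earlier results of these data known, was examined beside the members. In WT mice 46 were higher in the PFC, 14 higher in the Hypo and 16 not called, with a median log2 difference of 0.49 where all genes had -0.041. Among all genes 29% were higher and 31.6% lower, the background for each count below. Scaffold and anchoring proteins were the group most often higher in the PFC, 14 of 15 with a median of 1.85, among them *Dlgap1*, a partner of PSD-95 (2.82, SE 0.092). In the group of 14 kinases and phosphatases 10 were higher and none lower, including *Ptk2b*, a tyrosine kinase activated by calcium (4.02, SE 0.12). Of 7 transcription factors reported at receptor gene promoters, 2 were higher in the PFC, 3 lower and 2 not called (median -0.16). Among them *Mef2c*, an activity-regulated factor, was 28.4-fold higher in the PFC (log2 4.83, SE 0.13). Of the 14 genes that make or move the co-agonists glycine and D-serine, 7 were lower in the PFC, 3 higher and 4 not called, with a median of -0.42, so that the share called was near that of all genes. *Slc6a9*, the glial glycine transporter, was 4.11-fold higher in the Hypo (log2 -2.04, SE 0.10), and *Slc7a10*, a transporter of D-serine and glycine, 2.48-fold (log2 -1.31, SE 0.12). Of 9 signalling proteins at the receptor, 6 were higher in the PFC and 3 lower (median 0.96). One of the 3, *Nos1*, which makes nitric oxide, was 3.35-fold higher in the Hypo (log2 -1.75, SE 0.13). Markers of macroglia moved with the tissue too, since 7 astrocyte markers summed to 1330 to 2737 CPM in the PFC and 2770 to 3295 CPM in the Hypo, and 7 oligodendrocyte markers to 452 to 1697 CPM and 2190 to 3651 CPM. The sum of 6 microglia markers had a median of 274 CPM in the PFC and 229 CPM in the Hypo. The part of glia in these differences was not tested.

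Within each tissue 6 members were tested, since *Grin3b* did not reach the minimum of 100 reads. Averaged over sex, none was called between Ube3a2x and WT in the PFC, where 2 of 12824 genes (0.0156%) were called by edgeR and 7.46% had an unadjusted p under 0.05, against 0 of 6 members. The log2 differences were between -0.11 for *Grin2b* (95% interval -0.24 to 0.009) and 0.081 for *Grin3a*.

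In the males the *Grin2a* TPM values of Ube3a2x mice lay below those of WT mice, the CPM values overlapped, and the difference was not called. *Grin2a* was 71.8, 60.03, 71.0, 72.9 and 60.3 TPM in the 5 WT males and 51.1, 50.9, 45.2, 56.1 and 54.1 TPM in the 5 Ube3a2x males. Every Ube3a2x value lay below every WT value on this scale, but in CPM, the scale nearer to the test, the ranges were 262 to 333 in WT and 226 to 268 in Ube3a2x males and overlapped. How often genes in general separate the groups in TPM was not examined, so the separation is descriptive. In females the values were 54.4, 63.1, 53.3, 58.8 and 62.4 TPM in WT and 61.9, 64.1, 56.7, 62.9 and 62.4 TPM in Ube3a2x, which overlapped. In edgeR, 0 of 6 members and 0.117% of all genes were called for genotype in males, and in females 0 of 6 members and 0.0078%, while 18.6% and 14.5% of genes had an unadjusted p under 0.05. The members with such a p were *Grin2a* and *Grin2b* in males and *Grin1* and *Grin2c* in females. The log2 difference of *Grin2a* was -0.27 in males (SE 0.073, unadjusted p = 0.0018, adjusted p = 0.13) and 0.14 in females (SE 0.082, adjusted p = 0.42). DESeq2 called the difference in males (adjusted p = 0.043, 2.69% of genes).

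*Grin2b* had a similar pattern. Its values were 120, 100.4, 128, 138 and 116 TPM in WT males and 84.7, 80.5, 107, 103 and 98.2 TPM in Ube3a2x males, which overlapped, since the lowest WT value lay below the highest values of Ube3a2x mice. The log2 difference was -0.24 in males (SE 0.079, adjusted p = 0.15) and 0.012 in females (SE 0.087, adjusted p = 0.96).

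Among the females, *Grin1* and *Grin2c* had lower means in Ube3a2x mice. *Grin1* was 180, 181, 166, 195 and 197 TPM in WT females and 160, 165, 159, 153 and 105.9 TPM in Ube3a2x females, with no overlap in TPM, the lowest value being that of PFC Ube3a2x F 468. In CPM the *Grin1* ranges were 397 to 494 in WT and 328 to 406 in Ube3a2x females, and overlapped. The separation in TPM is again descriptive, without a share over all genes. *Grin2c* was 29.5, 23.5, 26.1, 25.7 and 20.4 TPM in WT females and 16.7, 20.5, 17.5, 25.2 and 11.1 TPM in Ube3a2x females, with overlap. The log2 differences in females were -0.21 for *Grin1* (SE 0.083, unadjusted p = 0.023, adjusted p = 0.31) and -0.32 for *Grin2c* (SE 0.13, unadjusted p = 0.024, adjusted p = 0.31). The male estimates were 0.064 for *Grin1* and 0.24 for *Grin2c*. In TPM, male *Grin1* was 150, 190, 167, 165 and 164 in WT and 213, 119, 110, 165 and 186 in Ube3a2x mice, with overlap. The male *Grin1* means, 167 TPM in WT and 159 TPM in Ube3a2x mice, differed in the direction opposite to the fitted estimate. Without PFC WT F 397 the differences in females were -0.10 for *Grin1* and -0.009 for *Grin2c*.

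The difference between the male and the female genotype effect, the interaction of sex and genotype, was -0.41 for *Grin2a* (SE 0.11, unadjusted p = 0.0015, adjusted p = 0.086), -0.25 for *Grin2b* (SE 0.12, adjusted p = 0.18), 0.27 for *Grin1* (SE 0.11, adjusted p = 0.15), 0.56 for *Grin2c* (SE 0.17, adjusted p = 0.092), 0.25 for *Grin2d* (SE 0.16, adjusted p = 0.33) and -0.061 for *Grin3a* (SE 0.15, adjusted p = 0.82). No member was called, and no gene was (0 of 12824, edgeR). Before adjustment, 4 of the 6 members and 25.6% of all genes had p under 0.05. DESeq2, another count test, called *Grin2a* and *Grin2c* (adjusted p = 0.025 and 0.036), where it called 6.92% of genes, and Storey's q-value gave the same 2 members with 7.43%. Without PFC WT F 93, 3 members were called by edgeR, *Grin2a*, *Grin2b* and *Grin2c*, with 15.3% of all genes. *Grin2a* and *Grin2c* were called without PFC Ube3a2x M 253 (8.74% of genes) and without PFC Ube3a2x F 462 (6.38%).

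Base composition moved with this interaction. The interaction estimate and the GC content of the exons had a Pearson's r of 0.60 across 12814 genes (genes being no independent replicates), and the 641 genes richest in GC had a median of 0.33. These 5% of genes took a median of 7.44% of reads in WT females and 6.46% in Ube3a2x females, while WT males had 6.97% and Ube3a2x males 8.19%. The GC-rich members *Grin1*, *Grin2c* and *Grin2d* had positive estimates, and *Grin2a*, *Grin2b* and *Grin3a* negative ones. After each library had been freed of its dependence on exon GC content and length, the interaction of *Grin1* turned to -0.028, that of *Grin2c* was 0.20 and that of *Grin2d* -0.22, whereas *Grin2a* stayed at -0.43 and *Grin2b* at -0.22, with 12.9% of genes at an unadjusted p under 0.05. When components of the quality measures replaced the surrogate variables, *Grin1* was at -0.19, *Grin2a* at -0.23 and *Grin2c* at 0.47, and 0 of 6 members had an unadjusted p under 0.05, where 3.49% of genes had. With 3 surrogate variables (4.67% of genes), *Grin2a* was at -0.20 and *Grin2c* at 0.11. Without PFC WT F 397, the interaction of *Grin2c* was 0.17 and that of *Grin2a* -0.33, and 5.57% of all genes had an unadjusted p under 0.05. In this library the coverage of the 5′ end relative to the 3′ end was 0.73, and 0.36 to 0.54 in the other 4 WT females, while the lowest of all PFC libraries was the 0.26 of PFC Ube3a2x F 468. Other PFC groups held similar values, such as 0.75 in PFC Ube3a2x F 417, the highest, and 0.71 in PFC WT M 403. The summed level of 7 astrocyte markers differed with genotype in the same direction as *Grin2c* within each sex in the PFC, with medians of 1720 CPM in female WT mice and 1566 CPM in female Ube3a2x mice. The male medians were 1912 CPM (WT) and 2055 CPM (Ube3a2x), and the ranges overlapped. Markers of oligodendrocyte precursors moved the same way, with medians of 183 CPM in WT and 141 CPM in Ube3a2x females. In males they were 153 CPM (WT) and 190 CPM (Ube3a2x), with overlapping ranges in each sex. Medians of microglia, endothelium and cortical excitatory neuron markers did so too, but not those of oligodendrocytes and inhibitory neurons. The part of base composition, coverage and cell content in the estimates was not tested beyond these fits.

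**Figure D5:**
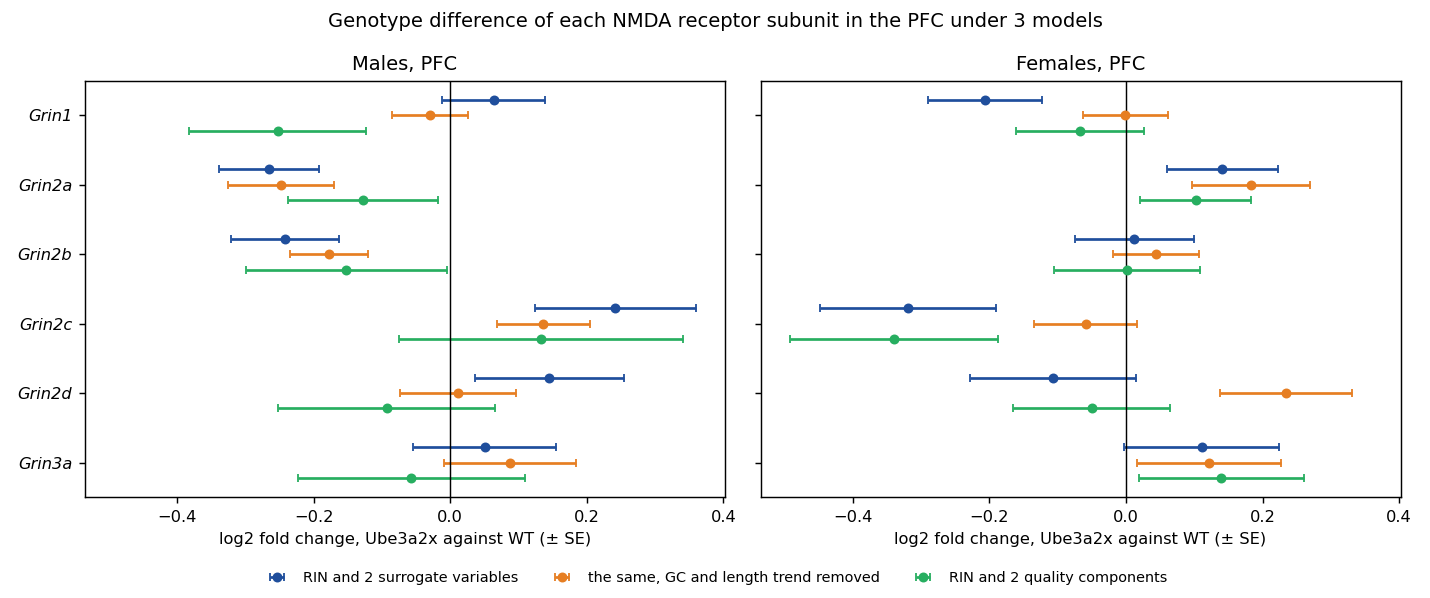
Log2 fold change of 6 NMDA receptor subunit genes in the PFC, Ube3a2x against WT (horizontal axis, ± SE), in males (left) and females (right), under 3 models. In males Grin2a and Grin2b are below 0 under each model; the female estimates of Grin1 and Grin2c are near 0 under the model freed of GC content and length.

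In the 76 genes of the pathway list, of which 72 were tested in the PFC, none was called for the interaction, and 28 had an unadjusted p under 0.05 (18 positive, 10 negative), a share of 38.9% beside the 25.6% of all genes. The smallest p were those of *Slc1a1*, a neuronal glutamate transporter (-0.28, SE 0.077, adjusted p = 0.086), and *Ppp3r1*, the regulatory subunit of calcineurin (-0.36, SE 0.10, adjusted p = 0.086).

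Genotype was not associated with a called change of any member in the Hypo. Averaged over sex, 0 of 6 members were called where 1 of 13964 genes (0.00716%) was, and the estimates lay between -0.052 for *Grin3a* and 0.087 for *Grin2c*. *Grin2c* was the only member with an unadjusted p under 0.05 for genotype in males, where edgeR called no gene (0 of 13964) and 8.5% of genes had such a p. In females, too, 0 of 6 members were called, where 0.00716% of genes were. It was 15.5, 16.6, 13.6 and 17.9 TPM in WT males and 17.7, 17.9, 18.6, 17.6 and 17.0 TPM in Ube3a2x males, which overlapped. Its log2 difference was 0.22 (SE 0.076, unadjusted p = 0.011, adjusted p = 0.57), and 0.13 without Hypo WT F 471. For the interaction in the Hypo no member and no gene was called (0 of 13964, edgeR), and 6.54% of genes and 1 member, *Grin2c* (0.26, SE 0.10, adjusted p = 0.73), had an unadjusted p under 0.05. None of the pathway list was called for genotype or for the interaction in the Hypo.

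*Grin3a* differed between the sexes in the Hypo. It was 48.7, 46.5, 45.6 and 10.7 TPM in WT females, the last being Hypo WT F 471, and 49.4, 46.7, 46.0, 46.2 and 47.6 TPM in Ube3a2x females. In males it was 44.9, 39.6, 39.4 and 42.0 TPM in WT and 42.2, 41.0, 41.0, 40.3 and 42.1 TPM in Ube3a2x. Apart from Hypo WT F 471, every female value lay above every male value. How often genes in general separate the sexes in this way was not examined. Averaged over genotype, *Grin3a* was lower in males by 1.16-fold (log2 -0.21, SE 0.032, adjusted p = 0.0041, edgeR), and it was 1 of 6 members called where 2.06% of genes were. Without Hypo WT F 471 the log2 difference was -0.20 (adjusted p = 0.0015). The call was not made with RIN as the only covariate (-0.11, adjusted p = 0.63, 0.129% of genes) or with the quality components (-0.24, adjusted p = 0.067, 0.551% of genes). The other 5 members had estimates between -0.11 and 0.088. In the PFC the sex difference of *Grin3a* was -0.16 (SE 0.081, adjusted p = 0.59), no member was called, and 0.078% of genes were. The difference of the sex effect between the tissues was not tested. Of the pathway list, *Src*, a tyrosine kinase that phosphorylates GluN2 (0.18, SE 0.036, adjusted p = 0.018), and *Gldc*, which degrades glycine (0.24, SE 0.057, adjusted p = 0.037), were higher in Hypo males, and *Cask*, a scaffold protein (-0.14, SE 0.031, adjusted p = 0.025), was lower.

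For each member the 3 genes with the highest Pearson's r of log2-CPM were sought among 22282 genes, over 38 libraries with the mean of each tissue subtracted. All points share depth, RNA quality and base composition within a library, and the r are descriptive. *Grin2b* was most like *Med1* (0.92), *Akap9* (0.92) and *Prrc2c* (0.92), and *Grin2a* most like *Tbl1xr1* (0.87), *Rc3h2* (0.87) and *Mier3* (0.86). *Grin1* was followed by *Mast1* (0.91), *Ints1* (0.90) and *Ap2a1* (0.90), *Grin2c* by *Mical1* (0.89), *Cbs* (0.89) and *Pbxip1* (0.88), and *Grin2d* by *Dlgap3* (0.87), *Tnk2* (0.87) and *Nr1h2* (0.87). For *Grin3a* they were *Lsamp* (0.83), *Cask* (0.82) and *Zfp518a* (0.82), and for *Grin3b*, on few reads, *Men1* (0.74), *Cd164l2* (0.74) and *Dtx2* (0.73). Without Hypo WT F 471 the r of *Grin3a* with these genes fell most, to 0.67 for *Lsamp*, 0.66 for *Cask* and 0.67 for *Zfp518a*, and those of *Grin2b* were 0.87 for each of its 3 genes. Genes outside the 3 named then came first for 6 of the 7 members, such as *Robo1* for *Grin3a* (0.67) and *Plxnb1* for *Grin2c* (0.93). For *Grin3b*, *Cd164l2* (0.76) came first in place of *Men1*.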

How the data were processed

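Libraries were stranded, poly(A)-selected and sequenced paired-end as 1 batch. The deposited table holds raw counts per gene, which the authors obtained with featureCounts after STAR alignment to GRCm38. The strand setting of the counting is not given in the sources used here. Per library, the authors deposited the RIN and AT dropout as scores, shares of bases and strand as fractions, and 5′ to 3′ coverage as a ratio, measured with Picard.

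From the counts, edgeR 4.0.16 (R 4.3.3) quasi-likelihood tests with TMM scaling and Benjamini-Hochberg adjustment were fitted over all genes. Tissues were compared over all 38 libraries with 8 groups and RIN, after edgeR's filter on low counts (22282 genes). Each tissue was also fitted with 4 groups, RIN and 2 surrogate variables (sva 3.50.0), without genes that had under 100 reads in 2 or more libraries (12824 genes in the PFC, 13964 in the Hypo). TPM used merged exon lengths of GENCODE vM21, which matched 53905 of the 54165 genes, while the authors counted on another release. Within a group the replicates are separate mice, and the p-values of fits within a tissue measure the spread between them. The main fit between tissues treated the paired libraries of the 13 mice with both tissues as independent. Among 72 pairs of libraries within a group none was a duplicate. The mouse numbers in the labels pair the tissues of 13 animals; the deviations of the paired libraries had correlations of -0.30 to 0.18 (median -0.042). The ratio was tested by exact permutation. Members, gene lists and tests were chosen with earlier results of these data known. Named pathway genes were those with the smallest p in each comparison, and not every gene that met this rule is reported here. The alternatives were other scaling, DESeq2 1.42.0, limma-voom (limma 3.58.1), Storey's q-value, other filters and covariates, a mouse block, removal of the trend on GC content and length, and leaving out each library. The edgeR fits were tried on simulated counts with known genotype and tissue changes. The simulation held no interaction of sex and genotype, no trend on GC content and no pairing of mice, so it does not bear on those.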

Additional observations from a re-analysis of the deposited data

Results flagged for a closer look

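Of 56 sets of libraries (7 genes in 8 groups), 5 held a library whose gap to the nearest other exceeded Dixon's 95% critical value, and chance gives about 1 in 20. In the PFC, *Grin1* was 105.9 TPM in Ube3a2x F 468, where the other 4 had 152.6 to 165.1 TPM. The same library had the lowest AT dropout of all PFC libraries (10.6, where the median was 18.2). *Grin3a* was 16.6 TPM in PFC Ube3a2x M 253, and 20.5 to 21.5 TPM in the rest of the group. In the Hypo, *Grin1* was 136.9 TPM in Ube3a2x F 420, the library with 380.8 M counted reads, and 106.3 to 114.3 TPM in the rest of its group. Hypo WT F 471 had the lowest *Grin2a*, 2.58 TPM against 8.10 to 9.04 TPM, and the lowest *Grin3a*, 10.7 TPM against 45.6 to 48.7 TPM. It also held the highest sum of pituitary markers. The part of these measures in the values was not tested.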

How the results depend on the processing

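Of 523 recomputed counts of called members and ratios, 514 were rated the same. A count was so rated if equal to the reported count or within 1.5 times it. A ratio was so rated if its permutation p stayed on the same side of 0.05, with its sign kept where p was under 0.05. Of 2703 recomputed single-member values, 12 became called and 8 lost the call. Of these values 126 changed sign, 124 of them with no call on either side and a reported unadjusted p of 0.05 or more (such as *Grin2d* in the PFC interaction), and 2 for *Grin1*. In the PFC interaction of sex and genotype, 2 members were called by DESeq2 and 2 by Storey's q-value, and 0 to 3 when 1 library was left out. Those calls arose without Ube3a2x M 253 (2), Ube3a2x F 462 (2) or WT F 93 (3). All genes called there rose from 0 to 887, 953, 1121, 818 and 1965. For genotype in PFC males, DESeq2 called 1 member, *Grin2a*. The interaction of *Grin1* turned to -0.19 with the quality components and to -0.028 with the trend on GC content and length removed. For sex in the Hypo, 0 members were called with RIN only and 0 with the quality components, where all genes called were 18 and 77 in place of 288 (DESeq2 760, Storey's q-value 486, 3 surrogate variables 519, and 86 to 760 without 1 library). With the mouse as a replicate block, 4 members were called between tissues in Ube3a2x mice, on fewer libraries, and all genes called were 5931 in place of 12377, and 6279 in place of 13516 in WT mice. Among the 6 well-covered members the block changed no call other than those of *Grin2c* and *Grin3a* in Ube3a2x mice. A minimum of 100 reads gave 7899 and 7438 genes between tissues, of 12494 tested in place of 22282. DESeq2 called more genes than edgeR for genotype in the PFC, 31 in place of 2 averaged over sex, 345 in place of 15 in males and 12 in place of 1 in females, in the Hypo, 7, 12 and 3 in place of 1, 0 and 1, for sex in the PFC, 42 in place of 10, and for the difference of the genotype effect between tissues, 34 in place of 0. Leaving out 1 library gave 1 to 73 genes in PFC males, 0 to 53 in Hypo males and 0 to 250 for the difference between tissues. Other models gave 1 to 47 genes in PFC males. The cause of the other changes was not tested. Depth limits *Grin3b* most, with a median of 2 reads per PFC library.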

Other observations

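Within a tissue some members varied together over libraries that share depth, RNA quality and base composition. *Grin2a* and *Grin2b* had a Pearson's r of log2-CPM of 0.78 in the PFC (20 libraries) and 0.90 in the Hypo (18 libraries). *Grin2c* and *Grin2d* had 0.79 in the PFC, whereas *Grin2a* and *Grin2d* had -0.66 there. In the Hypo *Grin2d* and *Grin3b* had 0.79. *Grin2b* and *Grin3a* had 0.77 there, which rested on Hypo WT F 471, since the other 17 libraries gave 0.13. Without that library *Grin2a* and *Grin2b* had 0.83, and *Grin2d* and *Grin3b* 0.78. These values are descriptive.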
